A study of Caenorhabditis elegans with 44 samples.

Results

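The transcriptome of young adult Caenorhabditis elegans was compared after 16 h of depletion of the heat shock transcription factor HSF-1 from the germline. The members are the 8 libraries of the strain JTL621 at 16 h, of 44 libraries in the series. JTL621 carries hsf-1 fused to an auxin-inducible degron (AID) and to GFP on chromosome I, in an unc-119(ed3) background with the transgene ieSi38, in which the sun-1 promoter drives the plant F-box protein TIR1 fused to mRuby and Cbr-unc-119(+) is the marker. This strain is called HSF-1-AID here, and 4 of its libraries came from worms on auxin plates and 4 from worms on ethanol plates. The strain CA1199 has the same unc-119(ed3) allele and the same ieSi38 transgene but untagged hsf-1. It is called TIR1-only, and its 4 auxin and 4 ethanol libraries at 16 h show what auxin itself does. TIR1, the transgene and unc-119(ed3) are thus shared by all 4 groups. Worms were synchronised by bleaching, grown for 51 h, and about 120 per condition were picked onto the plates without heat shock.

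In the auxin-inducible degron system, TIR1 recruits a degron-tagged protein to the ubiquitin ligase machinery when auxin is present, so the protein is lost where TIR1 is made, which here is the germline. HSF-1 is best known as the factor that switches on chaperone genes in heat. It is also needed without heat, for development and for the growing germline, where it keeps chaperone transcription high while many proteins are being made. RNA came from whole worms, so germline and somatic transcripts were measured together. Fewer cells of a type and less RNA per cell cannot be told apart in such libraries.

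The 16 h libraries held between 31006000 and 57722000 reads on the listed genes, and annotated ribosomal RNA genes took 1.16% to 3.43% of them. Markers of the germ line were abundant, since the 9 germ cell markers summed to between 6364 and 6758 counts per 1000000 reads (CPM) on ethanol and to between 6858 and 7156 CPM on auxin. TIR1-only auxin replicate 4 stood apart in long transcripts. Among well expressed genes with an exon length above 8000 bases its median log2 deviation was -0.36, against -0.03 to 0.01 in the other TIR1-only auxin libraries. Among genes of 4000 to 8000 bases the HSF-1-AID auxin libraries stood at 0.09 to 0.12 and the HSF-1-AID ethanol libraries at -0.08 to 0.02 on the same scale, and the part of this in the results was not tested. The TIR1-only values bear on the difference between the strains, and the 8 HSF-1-AID libraries fitted alone gave 4262 called genes against 4288 in the joint fit. Throughout, a gene is said to have risen or fallen when its Benjamini-Hochberg adjusted p from limma, over 10173 genes, was under 0.05. Fold changes are log2 differences between auxin and ethanol on the deposited log2 CPM scale, with the standard error (SE) of the fit and n = 4 libraries per group. Nothing in the labels states that replicates grew as separate cultures, and p-values here measure only the spread between libraries, which may be technical.

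The hsf-1 transcript itself was higher on auxin. It stood at 55.7, 50.9, 47.6 and 50.5 CPM on ethanol and at 70.9, 72.1, 71.0 and 69.3 CPM on auxin. Every auxin library lay above every ethanol library, and the log2 change was 0.47 (SE 0.047, limma adjusted p = 1.24e-06). Without the degron, in TIR1-only, hsf-1 ranged from 63.3 to 70.4 CPM over all 8 libraries, so the HSF-1-AID ethanol libraries were the low ones. The degron acts on the protein, and the transcript level does not check how much HSF-1 was lost. Of the small proteins known to bind HSF-1, ddl-2 rose by 0.33 on the log2 scale (adjusted p = 0.0167, limma; 0.0532 without HSF-1-AID auxin replicate 3 and 0.062 without ethanol replicate 4), ddl-1 changed by -0.25 (adjusted p = 0.00197, limma) and hsb-1 by 0.10 (adjusted p = 0.277, limma).

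Depletion moved many transcripts by small amounts. Of the 10173 genes tested, 2273 (22.3%) rose and 2015 (19.8%) fell, 42.2% in all. Only 233 (2.29%) rose and 492 (4.84%) fell by more than 1.5-fold, 725 genes (7.13%) in all, and the median change among the genes that rose was 0.28 on the log2 scale. For 4066 genes (40.0%) the 4 auxin and 4 ethanol values did not overlap. Auxin in the TIR1-only strain moved 14 genes up (0.138%) and 1 down (0.00983%), 0.147% in all, with 648 genes at an unadjusted p under 0.05. The auxin effect differed between the strains for 3015 genes (29.6%), more positive in HSF-1-AID for 1753 (17.2%) and more negative for 1262 (12.4%). Among the 2273 genes that rose, 1654 (72.8%) also passed the test of that difference in the same direction, against 1170 of the 2015 that fell (58.1%). The count beyond 1.5-fold depends on weakly expressed genes. It was 376 when at least 5 CPM in 4 libraries were required and 414 with 1 CPM added before taking logarithms. With library totals taken without ribosomal RNA genes, 1620 genes rose and 1927 fell, so the larger share turned from higher to lower. Here and below, such totals also left out the rescaling of library sizes held in the deposited values. Ribosomal RNA genes took 1.27% to 1.84% of the HSF-1-AID reads, and the parts of both steps in this shift were not tested apart.

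**Figure D1:**
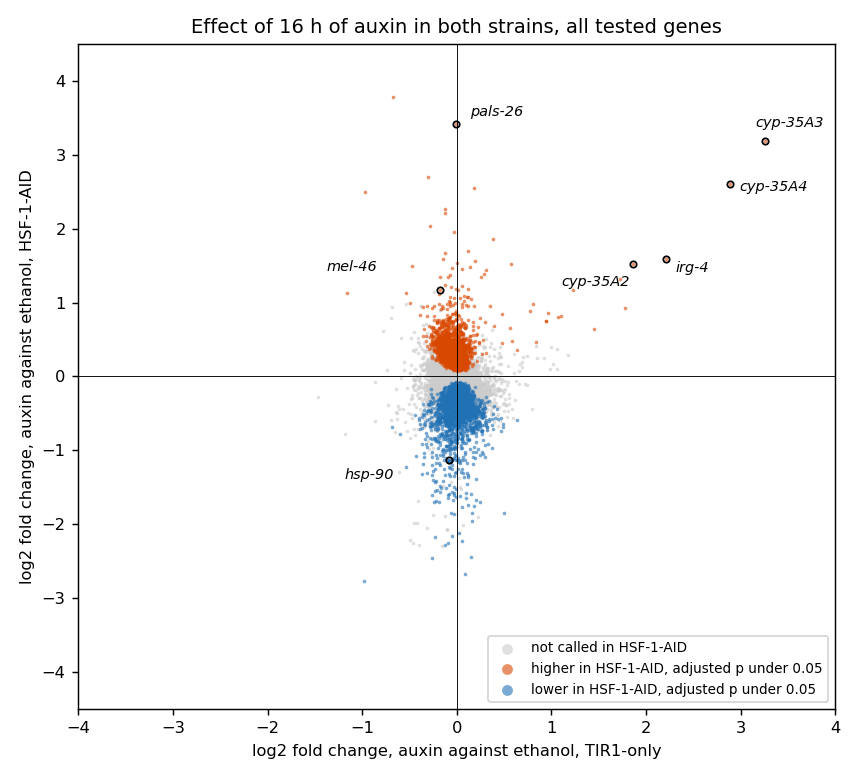
Log2 fold change after 16 h of auxin against ethanol in the TIR1-only strain (horizontal axis) and in the HSF-1-AID strain (vertical axis), 1 point per tested gene (10173), orange where higher and blue where lower in HSF-1-AID at an adjusted p under 0.05. Called genes spread along the vertical axis around 0 on the horizontal axis, with hsp-90 at -1.13 and mel-46 at 1.18, while cyp-35A3, cyp-35A4, cyp-35A2 and irg-4 lie high in both strains.

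Transcripts of the general cytosolic chaperones Hsp90 and Hsp70 were lower. Transcripts of hsp-90, which encodes Hsp90 of the cytosol (WBGene00000915, WBcel235 chromosome V, 14684918 to 14688545, plus strand), stood at 5746, 5514, 4705 and 4893 CPM on ethanol and at 2329, 2426, 2413 and 2316 CPM on auxin. The groups did not overlap, the log2 change was -1.13 (SE 0.084, limma adjusted p = 6.62e-08), and the TIR1-only libraries all held between 5069 and 6153 CPM. The constitutive Hsp70 hsp-1 went from 6093, 5990, 4979 and 5231 CPM to 3221, 3388, 3488 and 3314 CPM. That is a log2 change of -0.73 (SE 0.12, adjusted p = 0.000189, limma). The Hsp40 dnj-13 fell by 0.55 on the log2 scale (adjusted p = 1.48e-06, limma), from between 223 and 234 CPM to between 145 and 165 CPM. Expression of sti-1, the adaptor that links Hsp70 to Hsp90, was 275, 268, 243 and 243 CPM on ethanol and 173, 170, 182 and 187 CPM on auxin, a fall of 0.53 on the log2 scale (adjusted p = 7.22e-06, limma).

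Most other listed chaperones of the cytosol did not fall. The Hsp90, Hsp70 and chaperonin lists still held larger shares of falls than the 19.8% of all tested genes. Of 9 tested genes for Hsp90 and its co-chaperones, 4 fell (44.4%) and 2 rose, with a median log2 change of -0.06 against -0.03 over all tested genes. The Hsp90 activator ahsa-1 changed by -0.21. The risers were unc-45, a myosin chaperone that binds Hsp90, at 0.28, and the phosphatase pph-5 at 0.35. The Hsp90 co-chaperone daf-41, the p23 of worms, did not pass the test (0.09). Among 13 genes for Hsp70, Hsp40 and exchange factors, 5 fell (38.5%) and 1 rose, the Hsp70 exchange factor hsp-110 at 0.27 (adjusted p = 0.00337, limma). In CCT, the chaperonin for actin and tubulin, 4 of 8 subunits fell, all by little: cct-2 and cct-3 changed by -0.26, cct-5 by -0.24 and cct-4 by -0.10. The call of cct-4 was lost with the HSF-1-AID libraries fitted alone, with median-of-ratios scaling, and without any HSF-1-AID auxin library or ethanol replicate 1 or 2 (adjusted p from 0.0524 to 0.104, limma). In prefoldin, which hands clients to CCT, 1 of 6 subunits fell, pfd-6 at -0.16, which missed the threshold with library totals free of ribosomal RNA (adjusted p = 0.0685, limma). Of 10 small heat shock protein genes 2 fell (20.0%), hsp-17 at -0.55 and hsp-25 at -0.21. The median of the small heat shock list was -0.27.

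**Figure D2:**
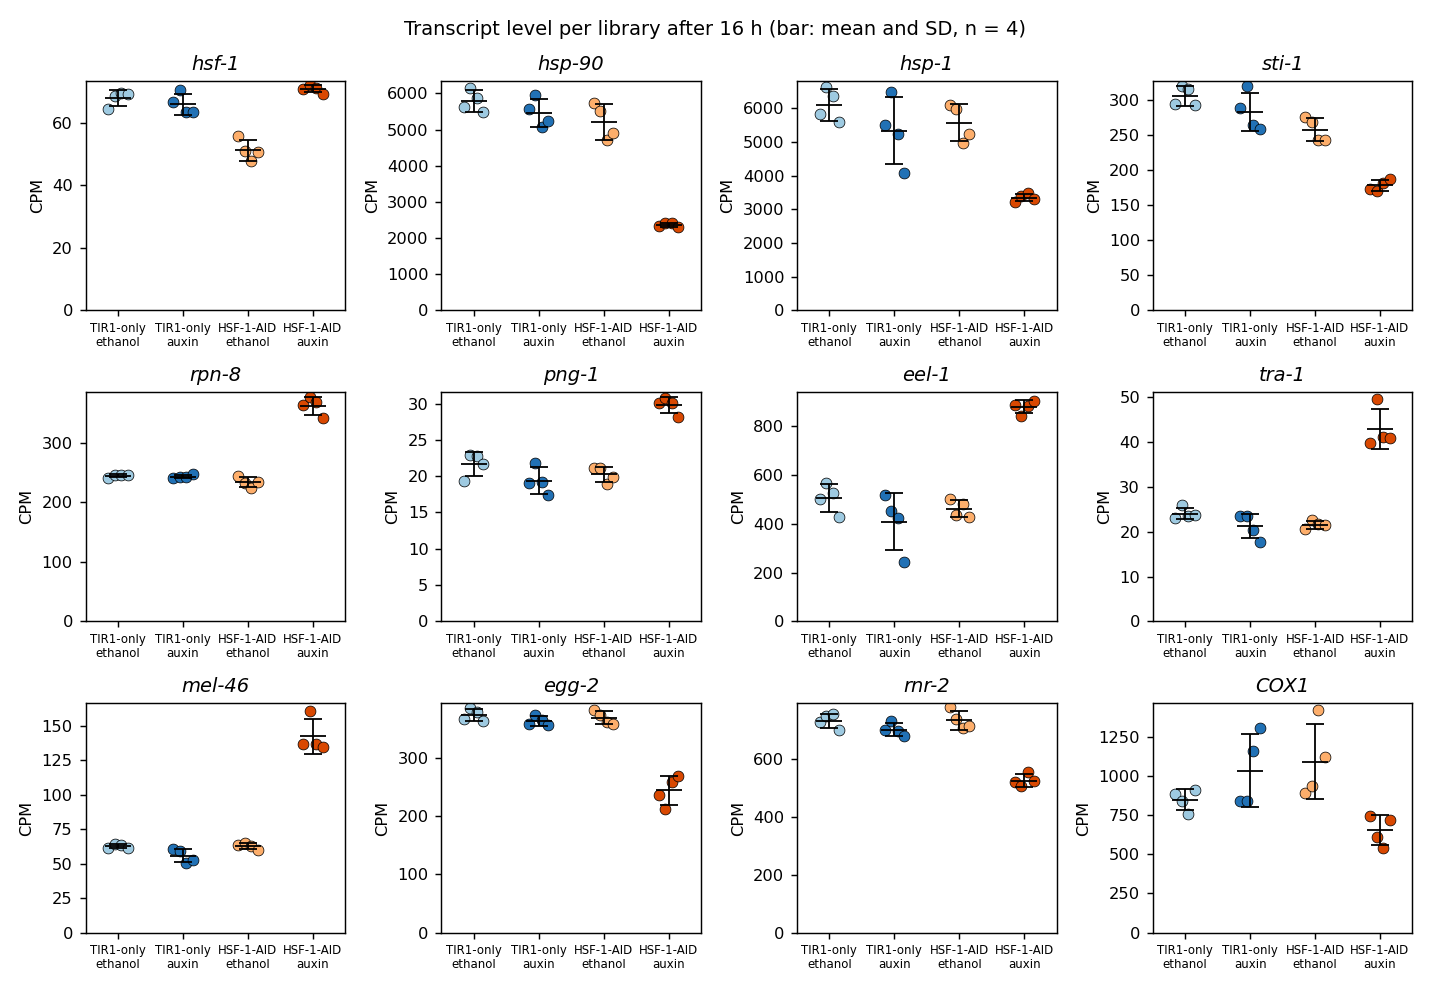
Transcript level in CPM in each of the 16 libraries at 16 h for 12 genes, by strain and plate, with a horizontal bar for the mean and an error bar for the SD of the 4 libraries. For hsp-90, hsp-1, sti-1, egg-2 and rnr-2 the 4 HSF-1-AID auxin libraries lie below the other groups, and for rpn-8, png-1, eel-1, tra-1 and mel-46 they lie above them. COX1 is lower on auxin in HSF-1-AID (541 to 746 CPM) and spread from 838 to 1306 CPM in TIR1-only auxin.

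The proteasome, which degrades ubiquitin-tagged proteins, moved the other way and moved as a whole. All 14 tested subunits of the 20S core rose, with log2 changes from 0.36 to 0.69 and a median of 0.54. All 10 of the 19S base rose, with a median of 0.44, and 9 of 10 of the 19S lid, with a median of 0.38. The core subunit pbs-6 stood at 280, 267, 236 and 252 CPM on ethanol and at 407, 420, 434 and 402 CPM on auxin. Its log2 change of 0.69 (SE 0.047, limma adjusted p = 3.14e-08) was the highest of the core, and the groups lay far apart. The ATPase subunit rpt-6 led the base at 0.67 (adjusted p = 1.58e-07, limma). The lid subunit rpn-8 was at 244, 232, 225 and 234.6 CPM and then at 363, 377, 368 and 341 CPM, while all 8 TIR1-only libraries held between 241 and 247 CPM. Its log2 change was 0.63 (SE 0.034, adjusted p = 5.1e-09, limma). The difference from TIR1-only passed the test for 14, 10 and 8 subunits of the core, base and lid, and the medians in TIR1-only were -0.02 for the core and -0.03 for the base. The proteasome adaptor ecps-1, homologous to human ECPAS, rose by 0.91 (adjusted p = 1.2e-05, limma), from 186, 171, 155 and 157 CPM to 307, 341, 321 and 290 CPM.

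Genes for SKN-1 and for proteins that act on or with it, both for and against its activity, were mostly higher as well. The membrane-bound isoform SKN-1A drives proteasome genes when proteasome activity is short. Of 9 listed, 7 rose and none fell, with a median of 0.21. The N-glycanase png-1, which edits SKN-1A, stood at 21.1, 21.1, 18.98 and 19.9 CPM on ethanol and 30.1, 30.8, 30.02 and 28.2 CPM on auxin. It rose by 0.56 (SE 0.069, adjusted p = 1.15e-05, limma). The protease ddi-1 that cleaves SKN-1A rose by 0.24 (adjusted p = 0.0527 with library totals free of ribosomal RNA, limma) and skn-1 itself by 0.21. The Mediator subunit mdt-15 rose by 0.41 and wdr-23, the receptor through which SKN-1 is degraded, by 0.69 (adjusted p = 1.45e-08, limma). Among 21 antioxidant genes 10 rose and 3 fell, with the glutathione synthesis enzyme gcs-1, a known SKN-1 target, at 0.42. The polyubiquitin gene ubq-1 went from between 1669 and 1956 CPM to between 2516 and 2655 CPM, a rise of 0.50 (adjusted p = 2.62e-05, limma). Of 23 ubiquitin, E1 and E2 genes 10 rose and 3 fell, with 6 rising when ribosomal RNA was kept out of the library totals. The E2 ubc-18 rose by 0.57 and the E1 uba-1 did not pass the test (0.02).

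Of 6 tested HECT ubiquitin ligases 5 rose. The HUWE1 homolog eel-1 was at 500, 434, 480 and 429 CPM on ethanol and 886, 841, 883 and 904 CPM on auxin, a log2 change of 0.93 (SE 0.16, adjusted p = 0.000294, limma). The TIR1-only auxin libraries held 516, 454, 423 and 242 CPM, the lowest being the replicate that is low in long transcripts. The ligase hecd-1 rose by 0.55. Cullins and the adaptors of their ligases were mixed, with 13 of 66 (19.7%) higher and 17 (25.8%) lower, both near the shares of all tested genes. The largest rise of that list was bath-36, of a family with BTB and MATH domains, at 1.47. The scaffolds cul-1 (0.31) and cul-3 (0.35) rose. The skr genes, which encode Skp1-related adaptors, went both ways: skr-14 was among those that fell (-0.76), while skr-17 (0.18) and skr-18 (0.20) rose. Without HSF-1-AID ethanol replicate 4, 10 genes of the list fell, and with at least 5 CPM in 4 libraries 10 fell.

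In the endoplasmic reticulum (ER), chaperones and the unfolded protein response were higher. Of 17 listed genes 10 rose and none fell, with a median of 0.21. The Hsp90 of the ER, enpl-1, stood at 711, 657, 678 and 659 CPM on ethanol and at 937, 1154, 1020 and 925 CPM on auxin, a change of 0.57 (SE 0.058, adjusted p = 1.61e-06, limma). Its direction was opposite to that of its cytosolic relative hsp-90. The disulfide isomerase pdi-1 rose by 0.61, the BiP gene hsp-4 by 0.48 and the transcription factor xbp-1 by 0.46. The other BiP gene, hsp-3, rose by 0.27, a call lost without HSF-1-AID auxin replicate 2 (adjusted p = 0.0563, limma) or 3 (adjusted p = 0.054, limma). The sensor ire-1 did not pass the test (0.05). ER-associated degradation, which pulls misfolded proteins into the cytosol, had 9 of 11 genes higher and none lower, with a median of 0.25. They included sel-11 (0.20), ufd-1 (0.36) and cdc-48.2 (0.27), whereas the paralog cdc-48.1 did not pass the test (0.09). Autophagy genes showed no such shift, with 5 of 26 (19.2%) higher and 3 lower, the lipid kinase vps-34 highest at 0.57.

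**Figure D3:**
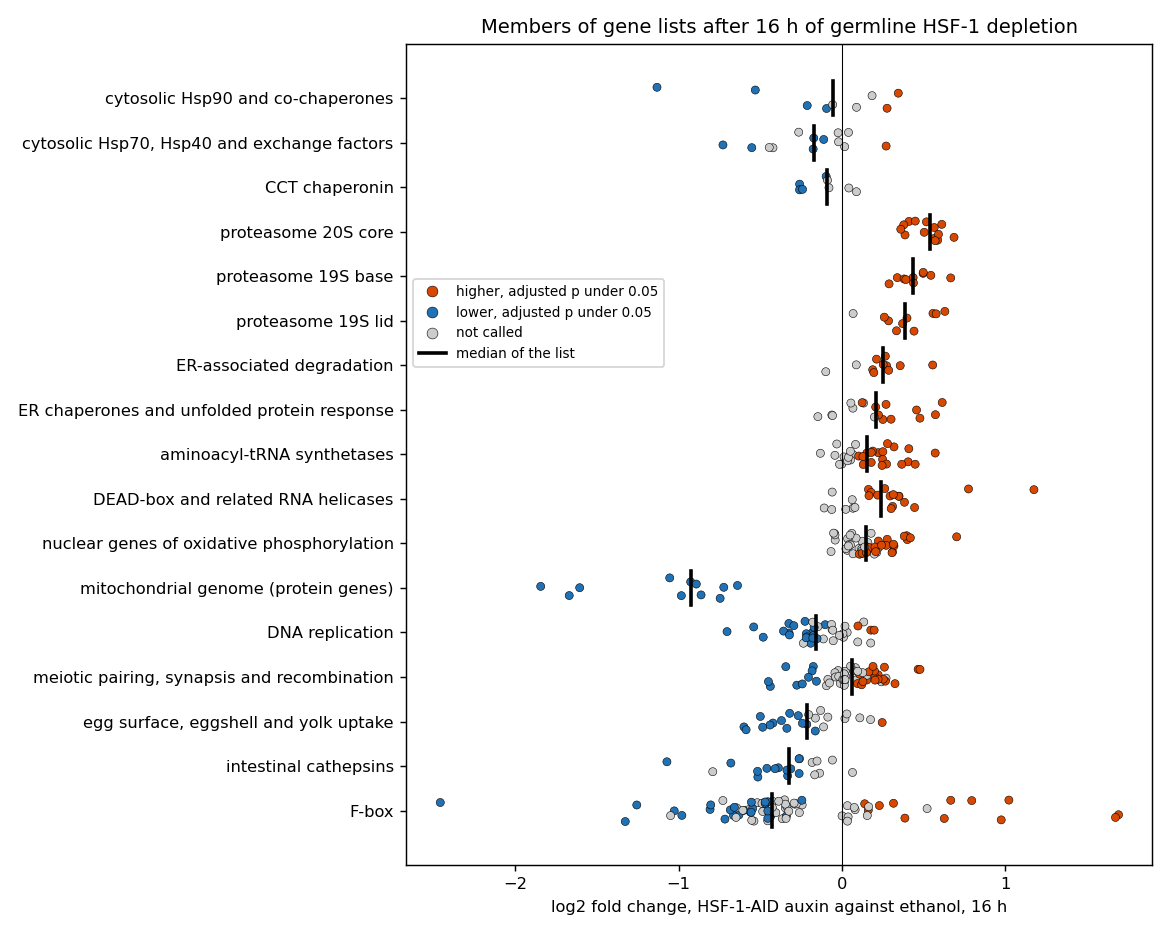
Log2 fold change of each tested member of 17 gene groups in HSF-1-AID auxin against ethanol at 16 h, 1 point per gene, orange where higher and blue where lower at an adjusted p under 0.05, with a black bar at the median of the group. Proteasome groups lie entirely above 0 with medians of 0.54, 0.44 and 0.38, the mitochondrial genome lies entirely below 0 with a median of -0.93, and Hsp90 and Hsp70 groups hold a few low members.

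Helicases that act on RNA were mostly higher. Of 22 DEAD-box and related helicases, enzymes that unwind RNA, 15 rose and none fell, with a median of 0.24. The helicase mel-46 (WBGene00020284, chromosome IV, 16855042 to 16863481, minus strand), whose loss is lethal through the mother, had the largest rise of any gene above the median level that met the naming rule. It was at 63.6, 64.7, 62.96 and 59.97 CPM on ethanol and at 137, 161, 137 and 135 CPM on auxin. The TIR1-only libraries all held between 50.8 and 64.4 CPM, and the log2 change was 1.18 (SE 0.061, adjusted p = 4.47e-09, limma). The nonsense-mediated decay helicase smg-2 rose by 0.78, from between 82.6 and 88.8 CPM to between 143 and 156 CPM (adjusted p = 2.04e-07, limma). Splicing factors rose in 15 of 32 cases (46.9%) and none fell, and 9 rose with library totals free of ribosomal RNA. In RNA polymerase II and Mediator 17 of 36 (47.2%) rose and 1 fell, and 11 rose under that scaling. The largest polymerase subunit ama-1 rose by 0.66 and the Mediator subunit mdt-6 by 0.64, the latter from between 73.0 and 81.02 CPM to between 117 and 132 CPM. Nuclear pore genes rose in 12 of 25 cases (48.0%) and fell in 2, with npp-1 lower at -0.24. These shares stand beside the 22.3% of all tested genes that rose. Among all tested genes that share grew with expression level, from 5.66% in the lowest quartile to 32.2% in the third and 36.4% in the highest. The gene lists of this report were not matched for level.

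Aminoacyl-tRNA synthetases, which charge tRNAs, had 19 of 31 members higher and none lower, with a median of 0.15, and 12 were higher with library totals free of ribosomal RNA. The leucyl enzyme lars-1 rose most, by 0.57, from 294, 280, 307 and 300 CPM to 444, 457, 431 and 423 CPM (adjusted p = 7.12e-08, limma). Translation factors rose in 14 of 47 cases (29.8%, against 22.3% of all tested genes) and fell in 2. Among them ife-5, a germline eIF4E, rose by 0.74 and gcn-2, a kinase that phosphorylates eIF2, by 0.60. None of the 80 cytosolic ribosomal protein genes passed the test in either direction, at a median of 0.06 and with changes between -0.14 and 0.21. In the nucleolus and ribosome biogenesis 8 of 19 rose and 3 fell, with 5 rising with library totals free of ribosomal RNA.

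Mitochondria showed opposite directions for their nuclear and their own genes. Of 51 nuclear genes of oxidative phosphorylation 21 rose and none fell, with a median of 0.15. The assembly factor cox-14 rose by 0.70, the succinate dehydrogenase subunit sdhb-1 by 0.42 and the complex I subunit nuo-1 by 0.32. The mitochondrial chaperonin hsp-60 rose by 0.46. By contrast, all 11 tested protein genes of the mitochondrial genome fell, by 0.64 to 1.84 on the log2 scale, with a median of -0.93 (this group was chosen after its values were seen). For the cytochrome oxidase subunit COX1 the ethanol libraries held 889, 935, 1421 and 1121 CPM and the auxin libraries 746, 612, 541 and 722 CPM. Its log2 change was -0.72 (SE 0.16, adjusted p = 0.00197, limma). Cytochrome b, CYTB, changed by -0.86 and ND4 by -1.05. Summed over the 11 genes the ethanol libraries held 2309, 2446, 3748 and 2993 CPM and the auxin libraries 1874, 1564, 1351 and 1782 CPM. The TIR1-only ethanol libraries held 2216, 2211, 1985 and 2323 CPM, and the TIR1-only auxin libraries 2190, 2125, 2970 and 3358 CPM. The HSF-1-AID groups were apart, every auxin library was below all 8 TIR1-only libraries, and ethanol replicate 3 was the highest of the 16. All 11 genes passed the test of the difference from TIR1-only. At 8 h none of the 11 was lower on auxin, with a median of 0.33, and at 24 h 10 were, with a median of -0.67.

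Of 38 listed genes of DNA replication, 19 (50%, against 19.8% of all tested genes) fell and 3 rose, with a median of -0.16. Enzymes that make DNA precursors led. Thymidylate synthase tyms-1 stood at 81.1, 78.2, 88.1 and 83.9 CPM on ethanol and at 49.2, 50.05, 52.2 and 51.7 CPM on auxin, a change of -0.70 (SE 0.039, adjusted p = 6.79e-09, limma). The groups were well apart. The dUTPase dut-1 changed by -0.54 and the small ribonucleotide reductase subunit rnr-2 by -0.48, while the large subunit rnr-1 did not pass the test (-0.06). The sliding clamp pcn-1 (-0.15) and the helicase subunit mcm-2 (-0.11) did not pass it either, but did with library totals free of ribosomal RNA (adjusted p = 0.0179 and 0.0312, limma), whereas mcm-3 changed by -0.32. Among 46 genes of mitosis, spindle and kinetochore 16 fell (34.8%) and 10 rose (21.7%), and the median was -0.03, as over all tested genes. The centromeric histone hcp-3 fell by 0.45 (adjusted p = 0.000167, limma), from between 126 and 151 CPM to between 86.2 and 110 CPM.

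Genes listed for germline stem cells and meiotic entry were split. Of that list the Nanos homolog nos-2 fell furthest. It was at 149, 142, 144 and 142 CPM on ethanol and at 75.8, 66.3, 76.2 and 81.2 CPM on auxin, and its 8 TIR1-only values lay between 140 and 147 CPM. The log2 change was -0.95 (SE 0.046, adjusted p = 3.46e-09, limma). The paired targets of GLP-1/Notch that keep stem cells, lst-1 and sygl-1, fell by 0.56 and 0.55, whereas the meiotic entry regulator gld-1 did not pass the test (0.00). The difference from TIR1-only was passed by lst-1 (adjusted p = 0.00107, limma) and not by sygl-1 (adjusted p = 0.299, limma). In the whole list 7 of 22 rose and 7 fell (31.8% each), against 22.3% and 19.8% of all tested genes. Without HSF-1-AID ethanol replicate 4 the risers were 3, and with library totals free of ribosomal RNA they were 4.

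Genes of meiosis also went both ways, with 18 of 52 (34.6%) higher and 9 (17.3%) lower, against 22.3% and 19.8% of all tested genes. With library totals free of ribosomal RNA 9 were higher. The synaptonemal complex protein syp-1 rose by 0.48 (adjusted p = 8.35e-07, limma), from between 56.8 and 61.1 CPM to between 76.5 and 88.4 CPM, and the recombinase rad-51 by 0.47. The crossover factor him-5 changed by -0.44 and lab-1, which protects cohesion on the long arm of the bivalent, by -0.45. The break-forming enzyme spo-11 did not pass the test (-0.09). Germ granule components were split, with 3 of 20 higher and 5 (25%) lower: the Vasa helicase glh-1 rose by 0.41 and meg-1 fell by 0.38. Of 16 Argonautes, proteins that carry small RNAs, 3 rose (18.8%) and 5 fell (31.2%). The PIWI protein prg-1 rose by 0.58 (adjusted p = 1.75e-05, limma), from 446, 399, 420 and 379 CPM to 579, 706, 629 and 547 CPM, and ppw-1 fell by 0.41. In the amplification of small RNAs and silencing 10 of 24 rose and 1 fell. The histone H3K9 methyltransferase set-25 led at 0.58.

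Sex determination genes had 10 of 19 members higher and 2 lower, with a median of 0.15. The terminal regulator tra-1, a zinc finger protein that promotes female fates (WBGene00006604, chromosome III, 11170890 to 11195201, minus strand), went from 20.5, 22.5, 21.6 and 21.4 CPM on ethanol to 39.8, 49.5, 41.2 and 40.8 CPM on auxin. It rose by 0.99 (SE 0.085, adjusted p = 2.71e-07, limma), and its 8 TIR1-only values lay between 17.8 and 25.9 CPM. The protease tra-3, which acts on TRA-2, rose by 0.57, while the receptor tra-2 fell by 0.33. The switch gene xol-1 was at 1.66, 1.19, 0.926 and 1.23 CPM on ethanol and at 2.52, 3.20, 2.51 and 2.27 CPM on auxin, a rise of 1.06 (adjusted p = 0.000226, limma). Its repressor sex-1, a nuclear receptor, fell by 0.57.

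Products of late oogenesis were lower. Of 23 genes of the egg surface, eggshell and yolk uptake 13 fell and 1 rose, with a median of -0.22. The egg surface receptor egg-2 stood at 383, 375, 362 and 359 CPM on ethanol and at 237, 214, 259 and 270 CPM on auxin, a change of -0.60 (SE 0.056, adjusted p = 6.47e-07, limma). The groups did not overlap, and the paralog egg-1 changed by -0.49. The amino sugar enzyme gna-2, needed for chitin, changed by -0.59 and the chitin synthase chs-1 by -0.32. The yolk receptor rme-2 fell by 0.50, from 1778, 1717, 1587 and 1572 CPM to 1136, 1027, 1274 and 1282 CPM, although the difference from TIR1-only did not pass for it (adjusted p = 0.176, limma). The yolk genes of the intestine did not follow: none of 6 vitellogenins passed the test, at changes between -0.04 and 0.02. Of 27 maternal regulators 7 (25.9%, against 19.8% of all tested genes) fell and 4 rose. Among them the oocyte maturation factors oma-2 and oma-1 fell by 0.48 and 0.21, pos-1, which specifies embryonic fates, by 0.45, and par-1 rose by 0.34. Of 14 tested genes of early embryonic transcription, most of them weakly expressed, 4 fell and 2 rose. The GATA factor elt-1 fell by 1.10, to between 1.45 and 1.98 CPM, and sdz-8 rose by 1.44, from between 0.649 and 0.987 CPM to between 1.69 and 2.90 CPM.

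Cell death and sperm genes gave single strong changes. The BH3-only activator egl-1 was at 0.918, 1.15, 0.972 and 1.37 CPM on ethanol and at 0.145, 0.443, 0.284 and 0.434 CPM on auxin, a log2 change of -1.70 (adjusted p = 0.00022, limma). The mitochondrial flavoprotein wah-1 rose by 0.42. In all 4 of 16 cell death genes rose and 4 fell (25% each), near the shares of all tested genes. The spermatogenesis factor spe-44 fell by 0.90, from 25.6, 24.97, 23.7 and 22.4 CPM to 12.4, 11.96, 13.7 and 13.5 CPM (adjusted p = 6.6e-08, limma). It was the only fall among 7 tested sperm genes, of which 1 rose (14.3% each way).

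Some gene groups expressed in somatic tissues, though not all only there, held more genes that fell than the 19.8% of all tested genes. The sun-1 promoter is not meant to make TIR1 in somatic tissues, and whole-worm RNA does not show in which tissue a transcript fell. Intestinal cathepsins, the proteases of the gut lumen and lysosome, fell in 12 of 20 cases (60%), with a median of -0.32, but the difference from TIR1-only passed for 1. The vacuolar ATPase had 8 of 21 (38.1%) lower and 1 higher, with 4 lower without HSF-1-AID auxin replicate 2 and 5 without auxin replicate 3. Enzymes of sulfur amino acids fell in 7 of 13 cases (53.8%). Among them cysl-3, a cysteine synthase-like enzyme, went from 50.6, 46.3, 41.6 and 46.2 CPM to 20.9, 15.6, 22.8 and 24.1 CPM, a change of -1.16 (SE 0.099, adjusted p = 2.56e-07, limma). Neuropeptide and insulin-like peptide genes fell in 10 of 33 cases (30.3%) and none rose, and C-type lectins and lysozymes in 18 of 67 (26.9%), with 3 higher. The difference from TIR1-only passed for 4 vacuolar ATPase, 3 sulfur amino acid and 4 peptide genes, all more negative in HSF-1-AID. Among C-type lectins and lysozymes it was more negative for 11 and more positive for 1, and 2 of that list also rose on auxin in TIR1-only. Nuclear hormone receptors fell in 22 of 121 cases (18.2%), a share like that of all tested genes, and rose in 9 (7.44%, against 22.3% of all). The count of risers was 5 without HSF-1-AID ethanol replicate 4 and 3 with library totals free of ribosomal RNA. The receptor nhr-181 had the largest fall of that list, at -1.70. Several of these lists hold mostly weak transcripts, and at least 5 CPM in 4 libraries left 8 nuclear receptors and 4 peptide genes lower. Cuticle collagens had 4 of 62 higher and 1 lower.

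Markers of cell types were set beside these groups. Of 10 intestine markers 5 fell and none rose, with a median of -0.26, and they summed to between 2573 and 3236 CPM on ethanol and to between 2215 and 2895 CPM on auxin. The difference from TIR1-only passed for 2 of the 10, more negative in HSF-1-AID. The intestinal factor elt-2 did not pass the test (-0.24), while the phosphatase pho-1 changed by -0.45. Of 10 muscle markers 1 fell. Of 15 neuron markers 9 were tested and none passed, and of 9 hypodermis markers 3 were tested and none passed. Of 9 germ cell markers 3 rose and none fell. Of 6 tested somatic gonad markers 1 rose and 2 fell: the filamin fln-1, which is also made elsewhere, rose by 0.52 and the gap junction genes inx-8 and inx-9 of the gonadal sheath changed by -0.25 and -0.31. The 2 tested sperm markers of 8 went opposite ways: spe-44 fell by 0.90, while spe-41 changed by 0.40 and did not pass the test. They summed to between 25.2 and 29.3 CPM on ethanol and to between 16.93 and 18.04 CPM on auxin, mostly from spe-44. The 3 tested early embryo markers of 12 summed to between 21.3 and 24.3 CPM and to between 12.8 and 17.1 CPM. The part of these markers in the results above was not tested.

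F-box genes, a large and fast-evolving family of substrate adaptors of ubiquitin ligases, held some of the strongest changes both ways. Of 80 tested 29 fell (36.2%, against 19.8% of all tested genes) and 12 rose, a smaller share than the 22.3% of all. The median was -0.43, and the list was not matched for level. Among all tested genes in the lowest quartile by level, 20.4% fell and 5.66% rose, at a median of -0.24. The adaptor fbxa-108 stood at 7.52, 8.87, 9.12 and 9.63 CPM on ethanol and at 30.2, 33.8, 24.7 and 25.8 CPM on auxin, a rise of 1.69 (SE 0.12, adjusted p = 4.98e-08, limma). The opposite was seen in fbxb-67, at 4.05, 5.103, 4.98 and 4.67 CPM and then 0.798, 0.469, 0.851 and 1.35 CPM, a log2 change of -2.46. With at least 5 CPM in 4 libraries, where fewer genes were tested, 10 fell. Some family members are near-identical copies whose reads cannot be separated, and 29 tested genes had values identical to another gene in all 16 libraries.

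Above the median level, 12 rises and 12 falls were named by size among genes that also passed the test of the difference from TIR1-only. After mel-46 the rises were C16A11.3 (1.07), tra-1, the long noncoding RNA linc-7 (0.97), eel-1, ecps-1, Y111B2A.12 (0.86), hpo-29 (0.84), the SET domain protein set-26 (0.81), R03D7.2 (0.81), smg-2 and the mitochondrial ribosomal protein mrpl-45 (0.77). The noncoding linc-7 went from 30.2, 25.7, 20.9 and 24.9 CPM to 57.2, 48.6, 49.9 and 42.5 CPM. All its auxin values lay above all its ethanol values. For hpo-29 the ethanol range was 40.1 to 42.8 CPM and the auxin range 66.2 to 80.5 CPM (adjusted p = 1.32e-08, limma).

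The largest fall was that of the pseudogene WBGene00009651 (chromosome V, 14635582 to 14637751, minus strand), from 45.7, 45.7, 40.7 and 44.1 CPM to 15.7, 11.6, 15.8 and 19.1 CPM. It fell by 1.52 (SE 0.1, adjusted p = 2.72e-08, limma), and the TIR1-only libraries all held between 45.3 and 48.4 CPM. Then came Y4C6A.3 (-1.31), F40G12.11 (-1.25), the sodium-coupled transporter snf-1 (-1.17), cysl-3, C50E3.13 (-1.15), the trypsin-like protease try-1 (-1.14), H04M03.3 (-1.14), hsp-90, F02H6.3 (-1.13), T21C9.13 (-1.09) and pgph-2, a phosphoglycolate phosphatase homolog (-1.08). The transporter snf-1 was at 31.5, 27.3, 30.5 and 28.3 CPM on ethanol and at 13.1, 11.33, 13.9 and 13.9 CPM on auxin. Its groups were far apart (adjusted p = 1.2e-08, limma). The protease try-1 was at 85.9, 86.2, 74.3 and 76.1 CPM and then at 36.6, 28.7, 38.9 and 43.4 CPM. Beta-tubulin ben-1, the target of benzimidazole drugs, fell by 0.97.

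At or below the median level larger changes rested on few reads. The pseudogene WBGene00019912 rose by 3.78, from between 0.0865 and 0.153 CPM to between 1.66 and 3.57 CPM. A member of a family that holds many genes induced by intracellular infection, pals-26, was at 0.408, 0.108, 0.116 and 0.165 CPM on ethanol and at 2.52, 5.86, 1.81 and 1.09 CPM on auxin. It rose by 3.42 (SE 0.54, adjusted p = 0.000118, limma). Other rises were C38D9.2 (2.70), F58H7.5 (2.55) and the collagen dpy-14 (2.49), whose call was lost without HSF-1-AID auxin replicate 2 (adjusted p = 0.0521, limma). The 5 falls were C07G1.7 (-2.77), F15D3.4 (-2.68), fbxb-67, WBGene00012058 (-2.45) and linc-63 (-2.28). For C07G1.7 the ethanol libraries held 3.82, 2.92, 5.95 and 2.76 CPM and the auxin libraries 0.339, 0.808, 0.654 and 0.338 CPM. In TIR1-only it was lower on auxin as well, between 1.49 and 3.08 CPM on ethanol and between 0.778 and 1.16 CPM on auxin. That log2 change of -0.98 did not pass the test (adjusted p = 0.654, limma).

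A few genes answered to auxin in both strains. All 14 genes that rose in TIR1-only also rose in HSF-1-AID. The only gene that fell in TIR1-only, F44E7.5, also fell in HSF-1-AID (-0.28 and -0.17). The risers were led by cytochrome P450 genes of xenobiotic metabolism. The P450 cyp-35A3 was at 1.78, 1.97, 2.85 and 2.68 CPM on ethanol and 14.2, 26.5, 15.4 and 33.7 CPM on auxin in HSF-1-AID. In TIR1-only it was at 1.99, 3.11, 2.46 and 3.68 CPM on ethanol and 28.3, 20.3, 24.0 and 36.5 CPM on auxin. The log2 changes were 3.18 and 3.26, and the difference between the strains did not pass the test (-0.08, adjusted p = 0.891, limma). The paralogs cyp-35A4 (2.61 and 2.89), cyp-35A2 (1.53 and 1.86) and cyp-35C1 (1.32 and 1.73) and the infection response gene irg-4 (1.59 and 2.21) did likewise. Reads of the cyp-35A paralogs may be shared. Of 39 cytochrome P450 genes 6 rose in HSF-1-AID, all of the cyp-35 family, and 13 (33.3%) fell. Without HSF-1-AID ethanol replicate 2, 8 fell.

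The direction of change differed between chromosomes. On chromosomes I and III 28.5% and 28.7% of tested genes rose, and 16.6% and 15.1% fell. On the X chromosome 8.52% of 1385 genes rose and 23.6% fell, against 22.3% and 19.8% over all tested genes. As background, most X-linked genes are kept silent in C. elegans germ cells until late oogenesis. Expression level moved with direction as well: in the lowest quartile of genes by level 5.66% rose and 20.4% fell, and in the highest quartile 36.4% rose and 15.5% fell. In the quartile of genes with the longest exons 30.7% rose and 15.3% fell. These features overlap between genes, and their separate parts were not tested. Of 290 pseudogenes 51 rose (17.6%) and 93 fell (32.1%).

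**Figure D4:**
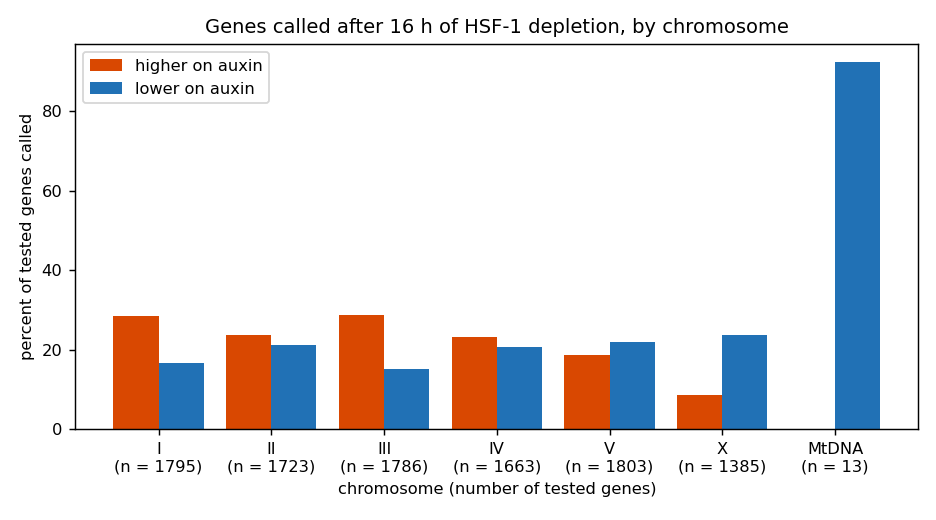
Percent of tested genes on each chromosome that were higher (orange) or lower (blue) in HSF-1-AID auxin against ethanol at 16 h, adjusted p under 0.05, with the number of tested genes below each name. Bars start at 0. The X chromosome has the lowest share of higher genes among nuclear chromosomes, 8.52%, and of the 13 genes of the mitochondrial genome 12 were lower.

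The 16 h changes were set beside those at 8 h and 24 h in the same strain, from tables normalised separately and without a test between times. Some chaperones of the cytosol were lower on auxin at 8 h as well. At 8, 16 and 24 h the log2 difference of hsp-90 was -1.24, -1.13 and -1.18, that of hsp-1 was -0.82, -0.73 and -0.88, and that of dnj-13 was -0.51, -0.55 and -0.77. The CCT list had a median of -0.24 at 8 h, -0.09 at 16 h and -0.14 at 24 h. The small heat shock list had 0.15, -0.27 and -0.27. The co-chaperone daf-41 went from -0.28 at 8 h to 0.28 at 24 h. The leading rises of 16 h were near 0 at 8 h. The 20S core had a median of -0.08 at 8 h, 0.54 at 16 h and 0.60 at 24 h. For mel-46 the differences were -0.05, 1.18 and 1.60, and for tra-1 0.13, 0.99 and 1.05.

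Genes of oocytes and replication lay furthest below 0 at 24 h. At 8, 16 and 24 h egg-2 stood at -0.14, -0.60 and -1.80, and the median of the eggshell list was -0.10, -0.22 and -1.05. The replication list had medians of -0.12, -0.16 and -0.47. The protease try-1 went from -0.26 to -1.14 and then -3.02. Over all genes that rose beyond 1.5-fold at 16 h, 52.4% of 210 listed had the same sign at 8 h and 99.1% of 227 at 24 h. Of those that fell, 59.8% of 463 had the same sign at 8 h and 93.3% of 478 at 24 h. For comparison, 44.1% of all tested genes were positive at 8 h and 47.9% at 24 h. The libraries at 8 h and 24 h are separate from those at 16 h.

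**Figure D5:**
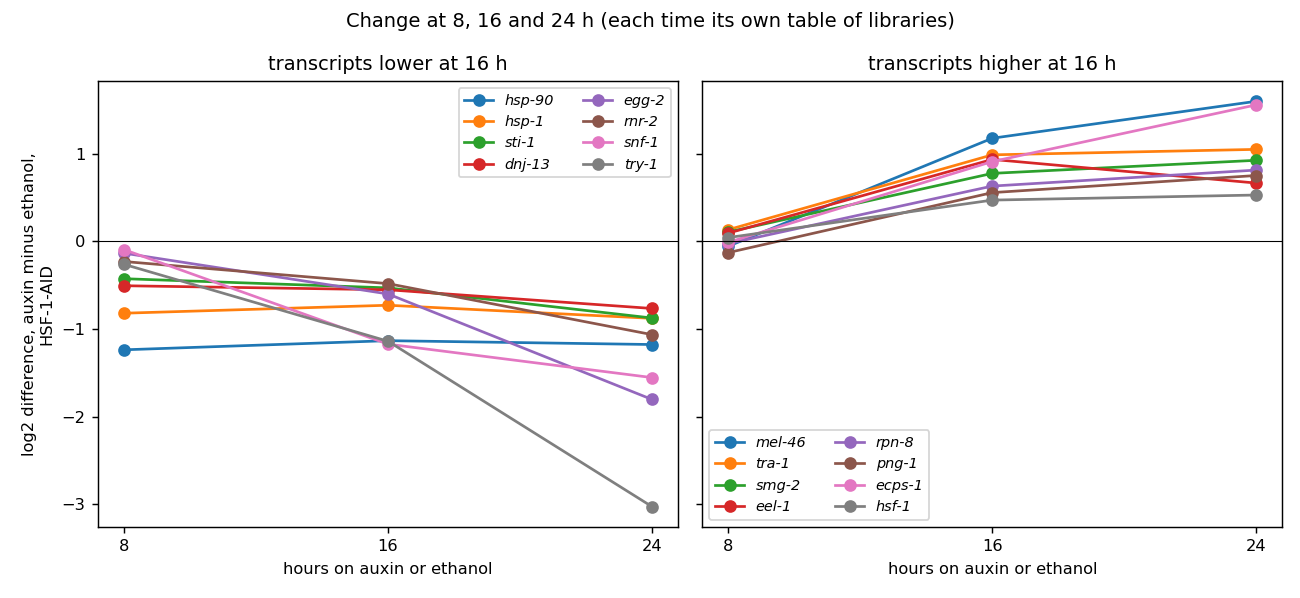
Log2 difference between auxin and ethanol in HSF-1-AID at 8, 16 and 24 h for 8 transcripts that were lower at 16 h (left) and 8 that were higher (right), 1 line per gene. hsp-90, hsp-1, sti-1 and dnj-13 are low from 8 h on, while the other 12 lie between -0.26 (try-1) and 0.13 (tra-1) at 8 h, with try-1 at -3.02 and mel-46 at 1.60 at 24 h.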

How the data were processed

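RNA sequencing of whole worms, from poly(A)-selected RNA in a directional kit per the labels' protocols, was deposited by the authors as log2 values per gene, 1 table per time. Reads were processed with STAR, featureCounts and edgeR on WBcel235 (ce11), per the submitters' processing notes, which give no versions. Whether counting used strand is not given in the sources used here. The deposited log2 values were found to be log2 CPM with a prior count of 2 reads and rescaled library sizes. Removing the prior gave CPM and whole reads, with 100% of values whole within 0.05 of a read.

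Genes with at least 1 CPM in at least 4 of the 16 libraries were kept (10173 of 10178). Because the values are logarithms, limma 3.58.1 in R 4.3.3 was fitted with a mean-variance trend to 4 groups of 4 (12 residual degrees of freedom), with Benjamini-Hochberg adjustment over all genes tested. Contrasts were auxin against ethanol in each strain and the difference of both. The fit was tested on simulated data with known changes. Names and positions came from Ensembl release 115 on the same build, which held 10173 of the 10178 identifiers. Names of 8 mitochondrial genes were matched through RefSeq by position. No pair of replicates agreed within sampling noise (chi-square per gene from 5.01 to 127.7 over 24 pairs).

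The named genes were the 12 largest changes each way above the median level and 5 each way below it, among called, non-overlapping genes that also passed the difference between strains, 5 each way called in both strains, and members of fixed lists. Members and lists were chosen with earlier results of these data known. Replicate numbers were not used to pair the libraries in the main fit. Alternatives covered the samples fitted, variance settings, library weights, scaling, filter, pseudocount, voom, a replicate block and leaving out each library. The authors' fold-change tables were not used, since their contrast is not stated. Promoter motifs were not analysed here.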

Additional observations from a re-analysis of the deposited data

Results flagged for a closer look

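For 9 of 314 groups of 4 libraries, 2 groups for each gene named, a single library stood apart from the other 3 by Dixon's ratio of gap to range at its critical value for such groups, and chance alone sets about 1 in 20 such groups apart. In HSF-1-AID auxin replicate 2, mel-46 was at 160.8 CPM against 134.7 to 136.8 CPM in the others, tra-1 at 49.48 CPM against 39.82 to 41.19 CPM, and tra-2 at 60.86 CPM against 66.84 to 67.49 CPM. In HSF-1-AID auxin replicate 4, ddl-1 was at 21.29 CPM against 18.32 to 18.65 CPM and unc-45 at 65.87 CPM against 63.05 to 63.46 CPM. On ethanol, ahsa-1 was at 268.9 CPM in replicate 3 against 287.8 to 291.7 CPM, ama-1 at 230.3 CPM in replicate 1 against 210.0 to 212.7 CPM, and pho-1 at 63.97 CPM in replicate 1 against 68.70 to 69.65 CPM. The adaptor skr-14 was at 8.985 CPM in ethanol replicate 4 against 5.903 to 5.964 CPM. None of these genes lost its call when the library concerned was left out.

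The effect of auxin differed between the HSF-1-AID and TIR1-only strains for 3015 genes, by the interaction term of the limma fit.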

How the results depend on the processing

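Of 146 named genes that passed the test, 143 kept their direction and call under each of 12 other settings and 142 without each of the 16 libraries in turn, with the exceptions given in the report. Of 53 counts of list members, 38 stayed within 1.5 times under each of those settings and 48 without each library. The number called beyond 1.5-fold, 725, became 376 with at least 5 CPM in 4 libraries, where fewer genes were tested, and 414 with 1 CPM added before taking logarithms. Leaving out each library gave 3481 to 4687 genes called, 1936 to 2485 higher, 1545 to 2202 lower, 582 to 849 beyond 1.5-fold and 2488 to 3482 for the difference between strains. In TIR1-only it gave 9 to 21 against 15, with 9 without auxin replicate 1 and without ethanol replicate 2, and the cause was not tested. Totals without ribosomal RNA genes, which also left out the rescaling of library sizes, moved the median of all genes from -0.03 to -0.07. They gave 3547 called genes.

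Replicate numbers were not used as a pairing in the main fit. Deviations of same-numbered auxin and ethanol libraries of HSF-1-AID correlated at 0.23, 0.11, -0.31 and 0.48. With 4 libraries per group, such correlations cannot decide whether same-numbered libraries shared a batch. With a replicate block 4573 genes were called, 2354 higher and 2219 lower, 14 in TIR1-only and 3425 for the difference, and not every library correlated best with its own number. At 31006000 reads or more per library, differences in transcripts near 1 CPM rest on few reads.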

Other observations

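Other gene groups gave smaller or mixed changes after 16 h, to be read beside the 22.3% of all tested genes that rose and the 19.8% that fell. Of 18 genes of cohesin, condensin and dosage compensation 6 rose and 1 fell, with the cohesin subunit smc-3 at 0.38. Of 19 germline chromatin regulators 7 rose and 1 fell, among them set-25 and the demethylase spr-5 (0.35). Histone genes were split, with 6 of 37 higher and 6 lower, and 10 lower with library totals free of ribosomal RNA, while reads of their near-identical copies cannot be separated. Among 16 genes of fatty acid synthesis and desaturation 4 fell (25%), including elo-2 and fat-3 at -0.52, and mdt-15 rose. Of 65 UDP-glucuronosyltransferases and glutathione S-transferases 17 fell and 9 rose, with gst-44 at -1.16 and gst-5 at 0.99, and 5 rose when at least 5 CPM in 4 libraries were required. On auxin in TIR1-only 3 genes of that list rose as well. The difference between the strains was more positive in HSF-1-AID for 3 of the 65 and more negative for 15. In TOR signalling 4 of 10 genes rose, among them the kinase let-363 (0.30), and 1 fell.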
